A study of Mus musculus with 15 samples.

Results

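The genes examined here encode voltage-gated and potassium ion channels, and the measurement was the methylation of their CpG dinucleotides in mouse sperm. Members were all listed CpGs inside, or within 2 kb of, the mm10 RefSeq span of genes whose symbol starts with Kcn (potassium channels) or Cacna1 (pores of voltage-gated calcium channels), or is Scn followed by digits and a (pores of voltage-gated sodium channels). This rule gave 1317 of the 204492 listed CpGs, in 92 of 116 genes. Of the 116 genes 113 are protein-coding and 3 are non-coding loci named after channel genes (Kcnd3os, Kcnmb4os1, Kcnmb4os2), which held no listed CpG.

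The libraries were made by reduced representation bisulfite sequencing (RRBS), in which the enzyme MspI cuts genomic DNA at CCGG and the short fragments, rich in CpG, are treated with bisulfite and sequenced, so that methylated cytosines are still read as C. All 15 libraries came from sperm of male C57BL/6 mice of generation G1. They comprised 8 libraries labelled with the PR diet, protein restricted as known from the published study, and 7 labelled with the Control diet. The labels do not say whether the sampled mice or a parent ate the diet, nor that each library is a separate mouse, so a p-value here reflects only how much these libraries vary, which may be technical.

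Potassium channels repolarise the membrane and set its resting potential, voltage-gated calcium channels turn a depolarisation into calcium entry, and voltage-gated sodium channels carry the upstroke of the action potential. Most of these genes are known from neurons and muscle, while mouse sperm depend on the potassium channel SLO3, encoded by Kcnu1, to hyperpolarise during capacitation, the maturation that enables fertilisation. Mammalian sperm DNA is methylated over most of its length, gene bodies included, and is left unmethylated mainly at CpG-rich promoters.

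Counts summed over listed CpGs ran from 6650912 to 10712016 in the PR libraries and from 7846118 to 11841657 in the Control libraries. The median coverage of a channel CpG was 26 to 40 reads in the PR libraries and 27 to 41 reads in the Control libraries. Counting error alone gives a CpG at 50% methylation a 95% half-width of 19.2 points at a coverage of 26 and 15.3 points at 41. No position in the list has fewer than 11 methylated reads in any library, so CpGs with little methylation are hardly represented, and a partly methylated CpG is listed only where it is deep. At imprinted loci that sperm carry methylated the level was 94.3% ± 1.42 in PR libraries (SD, n = 8) and 95.5% ± 1.09 in Control libraries (SD, n = 7) over the 7 listed CpGs upstream of the paternally methylated genes Meg3 and Rasgrf1.

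Start windows, the 250 bases before and 50 bases after an annotated RefSeq start, held few listed positions. The 115 windows of 85 channel genes held 1595 CG dinucleotides, of which 3 (0.188%) were listed, against 0.176% in the 32851 windows of all genes. The MspI site CCGG, which reads the same on both strands, was in 61.7% of the channel windows and in 52.8% of all windows. The 3 listed positions lay at 2 genes, Kcne4 and Kcnmb2. Their windows are shown because they carry these positions, and the window of Cacna1d because it holds the most CG of all the channel windows, 63, and none of it is listed. Sequences are from RefSeq (GRCm38.p6), written 5′ to 3′ on the strand of the gene, with the listed CG in capitals for Kcne4 (chr1:78816661-78816960, plus strand) and Kcnmb2 (chr3:31902453-31902752, plus strand), and every CG in capitals for Cacna1d (chr14:30353437-30353736, minus strand).
Kcne4 start window: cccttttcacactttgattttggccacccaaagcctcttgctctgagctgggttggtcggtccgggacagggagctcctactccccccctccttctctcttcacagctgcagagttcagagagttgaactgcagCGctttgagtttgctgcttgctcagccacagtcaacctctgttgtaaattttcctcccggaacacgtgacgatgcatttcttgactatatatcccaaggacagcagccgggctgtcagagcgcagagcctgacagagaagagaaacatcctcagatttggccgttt
Kcnmb2 start window: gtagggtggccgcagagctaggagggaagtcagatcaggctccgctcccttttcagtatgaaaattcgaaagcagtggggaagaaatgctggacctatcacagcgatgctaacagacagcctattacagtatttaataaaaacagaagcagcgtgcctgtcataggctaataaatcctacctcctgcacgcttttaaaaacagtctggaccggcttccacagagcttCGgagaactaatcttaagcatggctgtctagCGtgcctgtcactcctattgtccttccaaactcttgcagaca
Cacna1d start window: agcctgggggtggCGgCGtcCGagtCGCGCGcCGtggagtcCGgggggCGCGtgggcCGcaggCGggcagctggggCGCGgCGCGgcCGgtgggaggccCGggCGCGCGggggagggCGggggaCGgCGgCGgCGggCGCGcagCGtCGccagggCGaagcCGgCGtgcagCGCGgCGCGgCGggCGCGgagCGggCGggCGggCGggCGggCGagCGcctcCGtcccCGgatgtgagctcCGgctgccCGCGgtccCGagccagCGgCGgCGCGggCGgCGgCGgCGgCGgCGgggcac

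The windows of Kcne4 and Kcnmb2 hold 9 CG each, which is the median of the channel windows. The capital CG of Kcne4, a small subunit that dampens voltage-gated potassium channels, lay 116 bases before the start and was methylated at 97.8% ± 3.42 in PR libraries (SD, n = 8) and 98.3% ± 2.35 in Control libraries (SD, n = 7). The capital CGs of Kcnmb2, the β2 subunit that inactivates the large-conductance calcium-activated channel, lay 23 bases before and 8 bases after the start. They were only partly methylated, at 65.3% ± 8.07 and 64.1% ± 7.40 in PR libraries (SD, n = 8) and at 72.3% ± 5.88 and 73.8% ± 9.19 in Control libraries (SD, n = 7). Their unadjusted p-values in the CpG test described below were 0.236 and 0.107.

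Channel CpGs were highly methylated. Their mean was 96.4% ± 0.128 in PR libraries (SD, n = 8) and 96.4% ± 0.144 in Control libraries (SD, n = 7), where the CpGs in or near any gene had 96.0% in both diets. Of the channel CpGs 92.9% had a mean of at least 90%, against 91.9% of CpGs in or near any gene and 89.7% of all listed CpGs. Under 50% were 5 (0.380%), against 0.796% in or near any gene and 0.982% of all. Of the 92 genes 34 averaged above 98% and 20 under 95%. Of the 40 genes with at least 10 listed CpGs, 15 had no CpG under 90%, among them Kcnk2, a leak channel opened by membrane stretch. A gene with any listed CpG held a median of 8, and the 5 genes with the most held 320 of the 1317 (24.3%), so averages over CpGs lean on a few long genes.

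By the plain mean over CpGs, the order of families was led by the two-pore (leak) potassium channels. Their 75 CpGs in 10 genes averaged 97.6% ± 0.290 in PR libraries (SD, n = 8) and 97.6% ± 0.368 in Control libraries (SD, n = 7). The calcium channel pores, with 329 CpGs in 9 genes, had 97.01% ± 0.221 in PR and 96.97% ± 0.222 in Control libraries, and the sodium channel pores, with 211 CpGs in 10 genes, had 96.9% ± 0.180 in PR and 96.9% ± 0.216 in Control libraries. The calcium and sodium channel pores differed by less than the SD of their libraries. The two-pore family was higher by more than that SD, with overlapping libraries from 96.9% to 98.2%, against 96.7% to 97.3% for the calcium channel pores. This SD shows how repeatably the same CpGs were read, and not how much the genes of a family differ. Gene means ran from 90.8% to 98.8% in the two-pore family and from 89.6% to 99.5% among the calcium channel pores. Kcnk2 alone held 29 of the 75 two-pore CpGs.

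The voltage-gated potassium pores, the largest family by genes (326 CpGs in 30 genes), had 96.5% ± 0.227 in PR libraries (SD, n = 8) and 96.5% ± 0.187 in Control libraries (SD, n = 7). The calcium- and sodium-activated potassium channels (131 CpGs in 8 genes), most of which open when one of these ions rises in the cell, had 96.1% ± 0.195 in PR and 96.5% ± 0.352 in Control libraries. PR libraries lay between 95.9% and 96.5% and Control libraries between 95.9% and 97.04%, so the diets overlapped, although 0 of 8 PR libraries exceeded the Control mean. This family holds 2 of the 3 genes with an unadjusted p under 0.05, described below.

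By the mean over CpGs, the accessory subunits and the inward rectifiers were the least methylated families. The median over genes gave another order, led by the voltage-gated potassium pores at 98.1%, with 97.9% for the two-pore genes. It was 97.2% for accessory genes, 97.1% for sodium channel pores, 96.5% for calcium- and sodium-activated channels and 96.1% for inward rectifiers. Of the 23 accessory CpGs under 90%, 8 lay in Kcnmb2, 8 in Kcnip1 and 4 in Kcnab1. Accessory genes (169 CpGs in 14 genes), which encode subunits that modify potassium channel pores, averaged 94.7% ± 0.456 in PR and 94.9% ± 0.488 in Control libraries, and 13.6% of their CpGs were under 90%. Inward rectifiers (76 CpGs in 11 genes), which pass potassium into the cell more easily than out and hold the resting potential, averaged 94.6% ± 0.466 in PR and 94.4% ± 0.761 in Control libraries, with 10.5% under 90%. Under 90% were 3 of 75 CpGs in the two-pore family and 7.14% of all channel CpGs. The share was 8.13% for CpGs in or near any gene and 10.3% for all listed CpGs. The accessory and inward rectifier means over CpGs differed from each other by less than the spread of their libraries. In every family the libraries of the 2 diets overlapped.

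**Figure D1:**
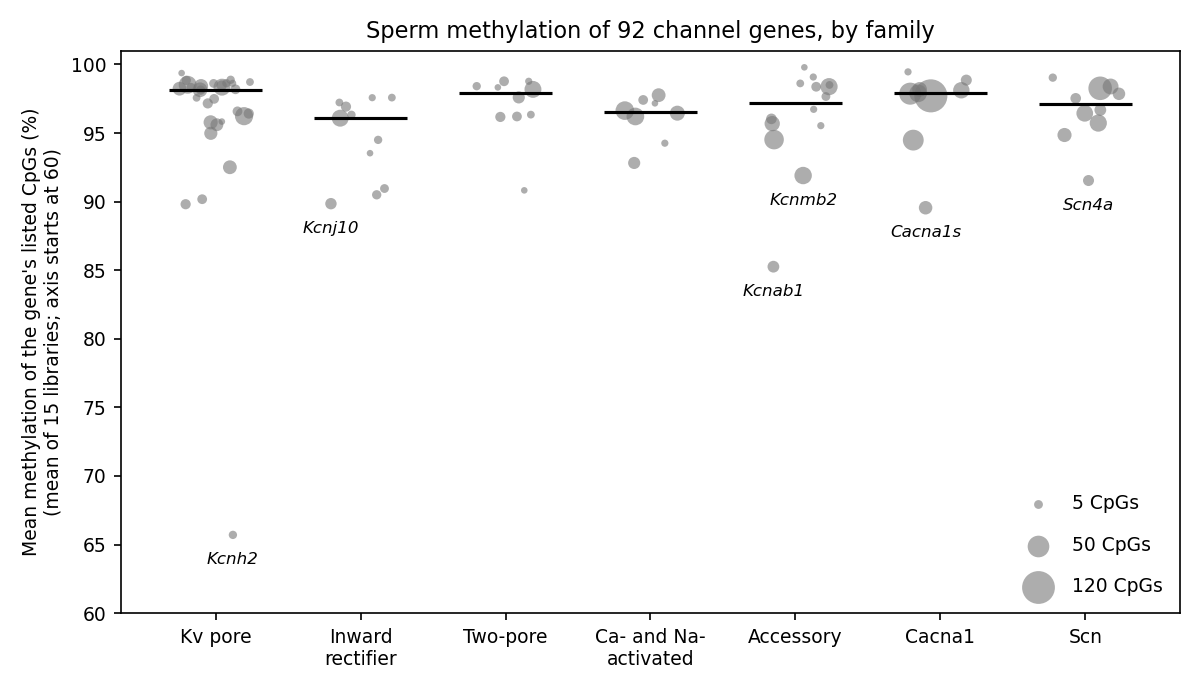
Mean methylation in percent (vertical axis, starting at 60) of the listed CpGs of each of 92 channel genes, by family; point area grows with the number of CpGs and the bars are family medians over genes. Most genes lie above 95%, and Kcnh2 (65.7%) and Kcnab1 (85.3%) stand lowest.

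**Figure D2:**
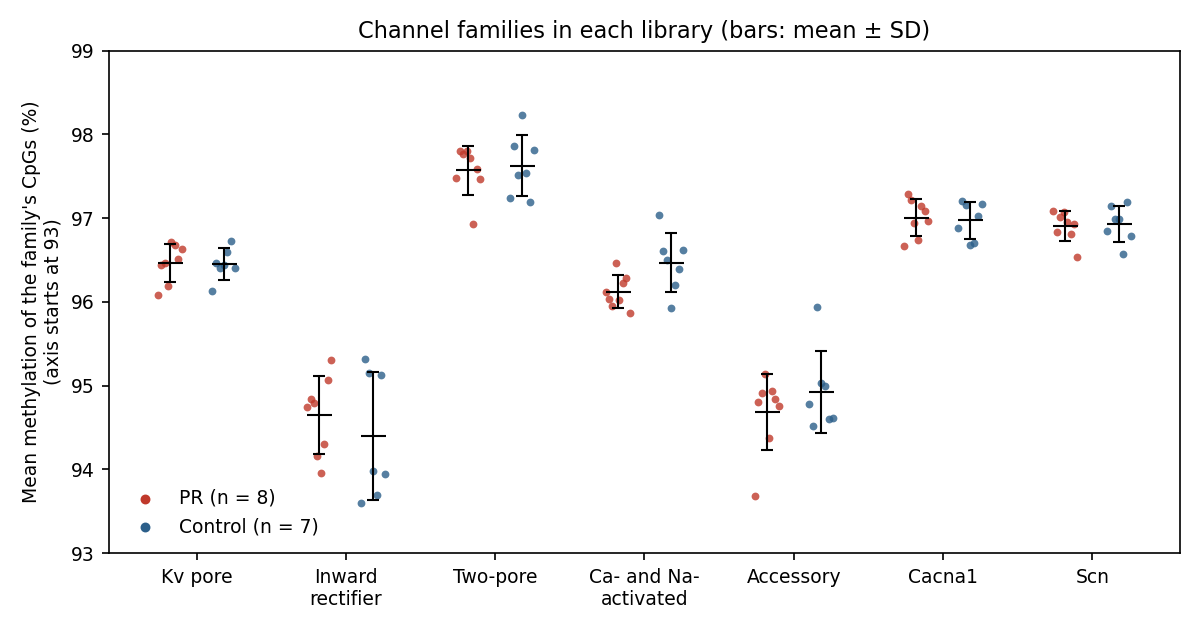
Mean methylation in percent (vertical axis, starting at 93) of each channel family in each library, PR libraries (red, n = 8) left of Control libraries (blue, n = 7), with mean ± SD. The SD is between libraries, not between genes. The diets overlap in every family. The lowest and highest family means lie further apart than the diets do: inward rectifiers and accessory genes lie near 94% to 95%, two-pore genes near 98%.

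In some genes of low average, such as Kcnab1 and Cacna1s, the lowest CpGs lay together in short partly methylated stretches. In others there was no such stretch: Kcnk16 had 1 listed CpG, at 90.8%, and Kcnj9 had 1 of 5 CpGs under 80%. That Kcnj9 CpG, position 172318962 on chromosome 1, lay in the flank outside the gene span (172320508 to 172329322) and within Igsf8. Of the 1317 channel CpGs 52 had a mean under 80%, and they lay in 26 genes. Kcnh2 encodes the ERG1 (hERG in humans) channel that ends the cardiac action potential, and its mean was the lowest of all channel genes, 67.2% ± 5.01 in PR libraries (SD, n = 8) and 64.0% ± 8.68 in Control libraries (SD, n = 7). It rested on 4 listed CpGs. The low 3 of these lay on chromosome 5 from 24326021 to 24326070, within Kcnh2 and within the predicted gene Gm15589, 3521 to 3570 bases inside the nearest annotated start of Kcnh2.

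The Kcnh2 stretch had a lowest, median and highest level of 47.6%, 55.6% and 72.0% in PR libraries, against 38.0%, 50.9% and 65.8% in Control libraries. The diets overlapped over most of that range, and the window that holds the stretch had an unadjusted p of 0.569. This was also the channel window with the largest dispersion, 3.81. Counting noise alone gives 1 only where CpGs are read independently, and the 3 CpGs of this window had the same mean coverage of 40.2 reads. Taken singly, these CpGs had dispersions of 0.843, 2.04 and 2.20.

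Kcnab1 encodes a cytoplasmic β subunit that speeds inactivation of Kv1 channels. Its stretch of 3 CpGs on chromosome 3 (65117541 to 65117592), 8527 to 8578 bases inside the nearest annotated start, had a lowest, median and highest level of 44.8%, 53.6% and 58.5% in PR libraries, against 39.9%, 50.4% and 57.9% in Control libraries. It held the least methylated channel CpG of all, position 65117544, at 43.0% ± 9.27 in PR libraries (SD, n = 8) and 42.3% ± 8.001 in Control libraries (SD, n = 7). The diets overlapped, with an unadjusted p of 0.977 for that CpG.

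The RefSeq span of Kcnmb2 begins at 31901861, upstream of its start window, so the start used here lies inside the span. Of the 2 channel genes with a listed CpG in a start window, Kcnmb2 had the partly methylated start. Its 6 CpGs from 31902680 to 31903608 on chromosome 3, between 23 bases before and 905 bases after the start, had a lowest, median and highest level of 58.5%, 70.4% and 74.6% in PR libraries, against 62.4%, 72.6% and 83.0% in Control libraries. The 4 of them nearest the start, in 1 window of 1 kb, averaged 64.3% ± 7.06 in PR libraries (SD, n = 8) and 70.7% ± 8.03 in Control libraries (SD, n = 7), with an unadjusted p of 0.267. Only 1 of 8 PR libraries lay above the Control mean there, but the diets overlapped. Further into the gene the level was higher but uneven, with 81.4% at 863 bases, 73.8% at 905, 83.4% at 959, 91.3% at 992 and 98.9% at 1415 bases from the start.

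Kcnh7, another ERG-type potassium channel, had a stretch of 3 CpGs on chromosome 2 (62808643 to 62808694) deep inside the gene. Its lowest, median and highest levels were 64.2%, 69.0% and 79.4% in PR libraries, against 61.0%, 65.7% and 70.3% in Control libraries. The PR libraries were mostly higher, 7 of 8 above the Control mean, with an overlap of the diets and an unadjusted p of 0.0551 for the window. Cacna1s, the L-type calcium channel of skeletal muscle, had 4 CpGs at 70.0% ± 6.68 in PR libraries (SD, n = 8) and 70.1% ± 5.67 in Control libraries (SD, n = 7). Scn4a, the skeletal muscle sodium channel, had 2 CpGs at 63.1% ± 4.72 in PR and 65.2% ± 7.26 in Control libraries. Kcnj10, the inward rectifier Kir4.1 of glia and kidney, had 2 at 77.4% ± 5.29 in PR and 74.0% ± 7.48 in Control libraries. These stretches were picked after their values were seen. Each runs from its first to its last CpG under 80%, so that of Kcnmb2 includes 1 CpG at 81.4%.

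**Figure D3:**
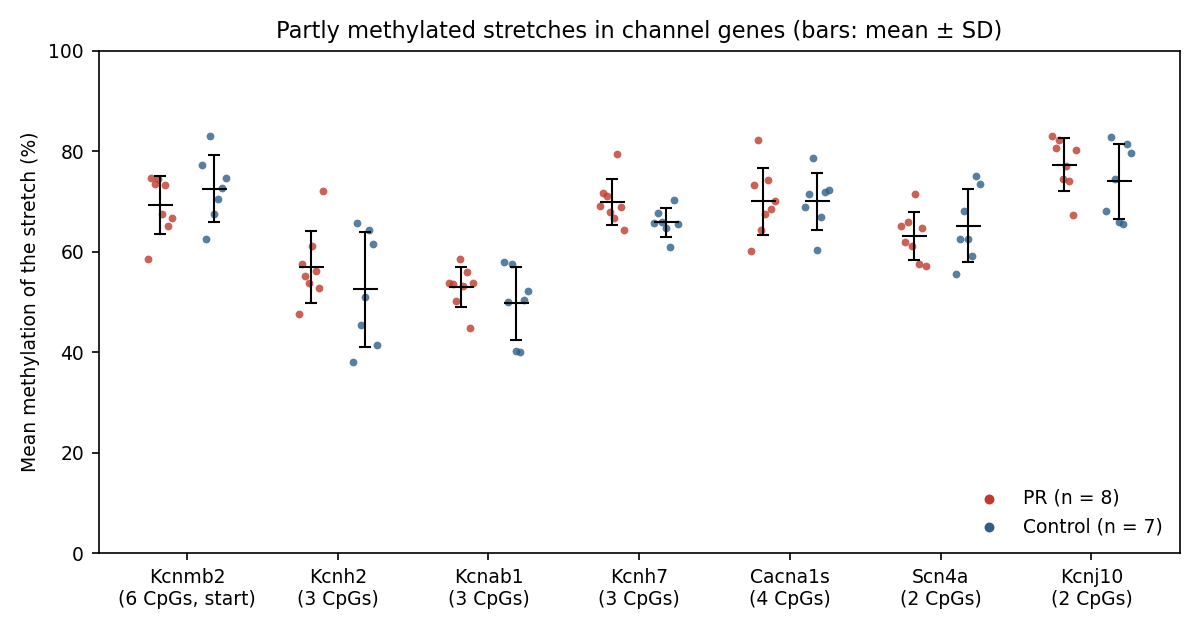
Mean methylation in percent of 7 partly methylated stretches in each library, PR libraries (red, n = 8) left of Control libraries (blue, n = 7), with mean ± SD. The diets overlap at each stretch, from Kcnab1 near 50% to Kcnj10 near 75%.

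Other runs of CpGs under 80% lay in Scn3a, in Kcna10 and in Cacna1i, a T-type calcium channel. The window of 1 kb around one of them in Cacna1i (80369001 to 80370000 on chromosome 15, 3 CpGs) had 72.5% ± 5.38 in PR libraries (SD, n = 8) and 71.0% ± 3.51 in Control libraries (SD, n = 7). Among CpGs outside such runs the lowest were in Kcnq5 (position 21512305 on chromosome 1, also within Gm7658), an M-current channel, at 42.2% ± 8.96 in PR libraries (SD, n = 8) and 45.0% ± 6.80 in Control libraries (SD, n = 7), and in Kcnb2, a delayed rectifier (position 15671282 on chromosome 1), at 48.0% ± 12.9 in PR and 42.3% ± 8.05 in Control libraries. A CpG of Kcnj10 1412 bases from its start had 46.2% ± 6.86 in PR and 51.4% ± 8.28 in Control libraries. Among the deepest was position 23902302 of Kcnma1, the large-conductance calcium-activated channel, which was read 117 times per library on average and had 56.6% ± 3.85 in PR and 56.9% ± 8.03 in Control libraries.

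Levels below 80% came with greater depth and greater spread. The 52 CpGs had a median coverage of 40.2 reads, against 30.9 for the other channel CpGs, and a median SD within a diet of 7.49 points, against 2.24. Their median dispersion was 0.950, against 0.928, where counting alone gives 1. A dispersion over 2 was found at 7 of the 52 (13.5%), against 2.66% of all channel CpGs, and the highest was 3.25 at position 119177378 of Cacna1c, also within Dcp1b. The mean was higher in PR libraries at 30 of the 52 and lower at 22, and the difference was at most 11.7 points. At 2 of them (3.85%, background 3.79%) the unadjusted p was under 0.05, position 62808655 of Kcnh7 (72.9% ± 4.82 in PR and 66.3% ± 4.69 in Control libraries) and position 107194397 of Kcna10 (66.1% ± 8.96 in PR and 77.8% ± 7.57 in Control libraries). The other Kcna10 CpG under 80%, position 107194531, went the other way, with 59.3% ± 7.30 in PR and 53.6% ± 6.09 in Control libraries.

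Few listed CpGs lay within 1 kb of an annotated start, and most of those under 90% were in Kcnmb2. The RefSeq start table held 85 channel genes; a listed CpG was found in 68 of them, and their 1010 CpGs could be placed. Within 1 kb of a start there were 19 CpGs in 5 genes (Kcne4, Kcnk2, Kcnip3, Kcnmb2, Scn10a) with a mean of 86.6%, and 52.6% of them were under 90%, against 20.9% for all genes at that distance. Of the 19, 8 belong to Kcnmb2, and the other 11 averaged 95.03%, with 3 of the 11 under 90%. At Kcnk2 the 5 CpGs from 230 to 306 bases inside the start were all above 98%.

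From 1 to 2 kb there were 20 CpGs with 6 under 90%, against 17.98% for all genes, and from 2 to 5 kb 57 CpGs with 7.02%, against 7.97%. The share was 11.9% of 168 CpGs from 5 to 20 kb (6.87% for all genes), 7.79% of 411 from 20 to 100 kb (6.11%) and 3.87% of 336 further away (6.38%). No test was made of these shares, since neighbouring CpGs share fragments and genes.

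**Figure D4:**
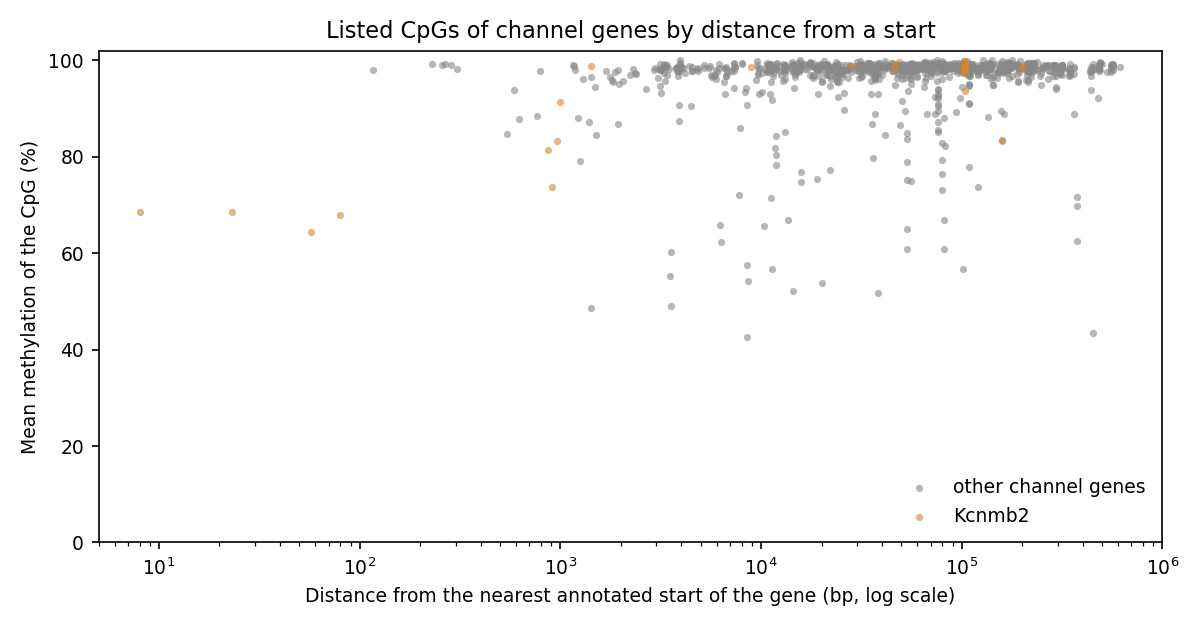
Mean methylation in percent over 15 libraries of the 1010 channel CpGs with an annotated start, against the distance from the nearest start in base pairs (log scale), with the CpGs of Kcnmb2 in orange. Within 100 bases of a start the listed CpGs are the 4 of Kcnmb2, at 64.4% to 68.6%; most points further out lie above 95%.

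The comparison of the PR diet with the Control diet asked whether channel CpGs, windows or genes differed in methylation. The test was a logistic regression of the counts with quasi-binomial errors, in which the spread between libraries widens the counting error, and p-values were adjusted by the Benjamini-Hochberg method over all features of the genome. No channel CpG passed an adjusted p of 0.05 (0 of 1317, background 0% of 204492), by this test or by limma on percentages, and the lowest adjusted p was 1. At an unadjusted p under 0.05 there were 57 channel CpGs (4.33%) against a background of 3.79%. Of these 22 were higher in PR libraries (1.67%, background 1.89%) and 35 lower (2.66%, background 1.9%). limma gave 64 channel CpGs at an unadjusted p under 0.05 (4.86%, background 4.56%). At 0 channel CpGs were the libraries of the 2 diets fully apart, against 0.0191% of all CpGs. These shares lie near the background.

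The smallest p-values belonged to nearly fully methylated CpGs. The lowest was at position 154418997 of Cacna1e on chromosome 1, the pore of R-type calcium channels, which had 99.9% ± 0.397 in PR libraries (SD, n = 8) and 97.1% ± 2.52 in Control libraries (SD, n = 7), with a quasi-binomial p of 0.00655 and an adjusted p of 1. At position 84597421 of Cacna1a, the pore of P/Q-type calcium channels, every PR library read 100%, against 96.7% ± 3.72 in Control libraries. Scn4a, Scn10a and Cacna1i followed among CpGs higher in PR libraries, with p from 0.0100 to 0.0153 in the same test and Control means of 96.8% to 98.4%.

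The pattern was mirrored on the other side. At position 62981519 of Kcnh7, also within Gm52513, PR libraries had 96.99% ± 3.03 (SD, n = 8) and every Control library 100%, with an unadjusted quasi-binomial p of 0.00863. At the next 4, in Kcnk2, Cacna1c, Scn8a and Kcns3, the Control libraries again all read 100% and the PR means were 97.96%, 96.0%, 97.3% and 98.2%. The 10 differences were between 1.62 and 4.003 points, they rest on few unmethylated reads, and the diets overlapped at each.

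Summed over windows of 1 kb with at least 3 listed CpGs, the channel genes gave 190 windows holding 798 of their CpGs. By the quasi-binomial test 0 of 190 passed an adjusted p of 0.05 (background 0% of 28743), as with limma, and the lowest adjusted p was 0.999. At an unadjusted p under 0.05 there were 5 (2.63%, background 3.33%), and limma gave 12 (6.32%, background 4.75%). Of the 5, 4 were higher in PR libraries (2.11%, background 1.64%) and 1 lower (0.526%, background 1.69%).

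The 5 windows are named here after their values were seen. In Scn4a (106321001 to 106322000 on chromosome 11, 4 CpGs) PR libraries had a lowest, median and highest level of 98.6%, 99.2% and 100% and Control libraries 96.4%, 98.1% and 98.6%. This was the only channel window in which the diets did not overlap (0.526%, background 0.0452%), and its quasi-binomial p was 0.0159 before and 0.999 after adjustment. It holds position 106321688, the Scn4a CpG named above among the smallest p-values. Both are also part of the Scn4a gene test, so these are not separate results. The others higher in PR libraries were in Kcnj9 (98.4% ± 1.38 in PR and 96.0% ± 2.26 in Control libraries), Kcnq5 (98.9% ± 1.30 in PR and 96.8% ± 1.40 in Control libraries) and Cacna1d (99.4% ± 0.819 in PR and 97.8% ± 1.43 in Control libraries). With each library left out in turn, the unadjusted quasi-binomial p of the Scn4a window was at most 0.0403. It was above 0.05 in 3 of the 15 settings for Kcnj9 (up to 0.0668, without Control replicate 4), in 5 for Kcnq5 (up to 0.0653, without PR replicate 7) and in 10 for Cacna1d (up to 0.139, without Control replicate 4).

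The window lower in PR libraries was in Kcnn4, on chromosome 7 from 24382001 to 24383000, with 4 CpGs. Its lowest, median and highest levels were 61.3%, 79.2% and 82.4% in PR libraries, against 80.4%, 83.5% and 91.7% in Control libraries. The diets overlapped only between 80.4% and 82.4%, and 0 of 8 PR libraries exceeded the Control mean. The difference was -8.04 points, and its quasi-binomial p was 0.0131 before and 0.999 after adjustment. Coverage in this window averaged 22.2 reads per CpG, below the median of the channel CpGs. Without PR replicate 8, the lowest library, the difference was -5.73 points and the quasi-binomial p 0.0144 before adjustment.

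The 5 windows of the channel genes with the largest dispersion were in Kcnh2, Kcnb2, Kcnn2, Cacna1s and Kcnmb2, with values of 3.81, 3.56, 3.44, 2.96 and 2.95. Where the CpGs of a window share reads, counting noise alone can raise this value above 1. Taken singly, the 4 CpGs of the Kcnmb2 window had dispersions of 0.710 to 1.03, while the lowest CpG of the Kcnb2 window had 2.81. In 4 of the 5 windows the mean level was between 54.9% and 74.8%. In that of Kcnn2, the small-conductance channel SK2, it was 94.95% ± 1.87 in PR libraries (SD, n = 8) and 96.1% ± 4.27 in Control libraries (SD, n = 7). Over all 190 windows the median dispersion was 1.04 and 6.32% exceeded 2, against 1.10 and 11.2% over all windows.

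Whole genes were tested on the counts summed over their CpGs, for the 77 channel genes with at least 3. By the quasi-binomial test 0 of 77 passed an adjusted p of 0.05 (background 0% of 13664), as with limma on gene means, and the lowest adjusted p was 0.999. Summed levels were higher in PR libraries for 42 and lower for 35, with a median difference of 0.02 points, against 0.01 points over all genes. At an unadjusted p under 0.05 there were 3 genes (3.90%, background 3.04%), of which 3 were lower in PR libraries (3.90%, background 1.45%) and 0 higher (background 1.6%). In 0 of the 77 were the diets fully apart (background 0.0366%). limma on gene means gave 4 genes at an unadjusted p under 0.05 (5.19%, background 4.9%), Kcnj9, Kcnn4 and Cacna1g among them. Of the 4 only Kcnn4 was also among the 3.

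Kcnn4 encodes the intermediate-conductance calcium-activated potassium channel of red cells, lymphocytes and secretory epithelia. Its 13 CpGs (gene span 24369826 to 24385212 on chromosome 7) had a lowest, median and highest level of 86.5%, 92.4% and 93.9% in PR libraries, against 91.2%, 94.5% and 96.0% in Control libraries. The diets overlapped, with the lowest value in PR replicate 8. The means were 91.8% ± 2.37 in PR libraries (SD, n = 8) and 94.0% ± 1.77 in Control libraries (SD, n = 7), with an unadjusted quasi-binomial p of 0.0119 (adjusted 0.999). Leaving out each library in turn moved that p between 0.00444 and 0.0346, the highest without PR replicate 8. The 13 CpGs include the 4 of the Kcnn4 window described above, so gene and window are not separate results. At 5 of the 13 the mean was higher in PR libraries.

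Kcnu1, the sperm potassium channel SLO3 and the member with the best known role in this cell, lies on chromosome 8 (25848627 to 25937943). Its 18 CpGs had a lowest, median and highest level of 96.0%, 97.2% and 98.98% in PR libraries, against 97.2%, 98.3% and 99.01% in Control libraries. The ranges overlapped over most of their width, and 2 of 8 PR libraries exceeded the Control mean. The means were 97.4% ± 0.978 in PR libraries (SD, n = 8) and 98.2% ± 0.664 in Control libraries (SD, n = 7), with an unadjusted quasi-binomial p of 0.0120 (adjusted 0.999, and unadjusted 0.105 with limma on gene means). Leaving out each library in turn moved the unadjusted p between 0.00229 and 0.0274.

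Kcnip1 encodes a calcium-binding subunit of Kv4 channels. Its 40 CpGs, the most of any accessory gene, averaged 94.2% ± 0.497 in PR libraries (SD, n = 8) and 94.9% ± 1.02 in Control libraries (SD, n = 7), with an unadjusted quasi-binomial p of 0.0450. PR libraries lay between 93.5% and 95.003% and Control libraries between 93.5% and 96.1%. Without Control replicate 4 the p was 0.111, above the threshold.

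The next genes did not reach an unadjusted p of 0.05 in the quasi-binomial test. Cacna1g, the T-type calcium channel Cav3.1, had 97.8% ± 0.761 in PR libraries (SD, n = 8) and 98.7% ± 0.384 in Control libraries (SD, n = 7), with a p of 0.0628 in the same test. On the other side the smallest p-values were those of Scn4a (0.0811), Cacna1c (0.0946), Kcne2 (0.109), Kcnj2 (0.138) and Kcnq5 (0.154). Cacna1c, the cardiac and neuronal L-type calcium channel, held the most CpGs of any channel gene, 122, and had 97.8% ± 0.266 in PR and 97.6% ± 0.099 in Control libraries.

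**Figure D5:**
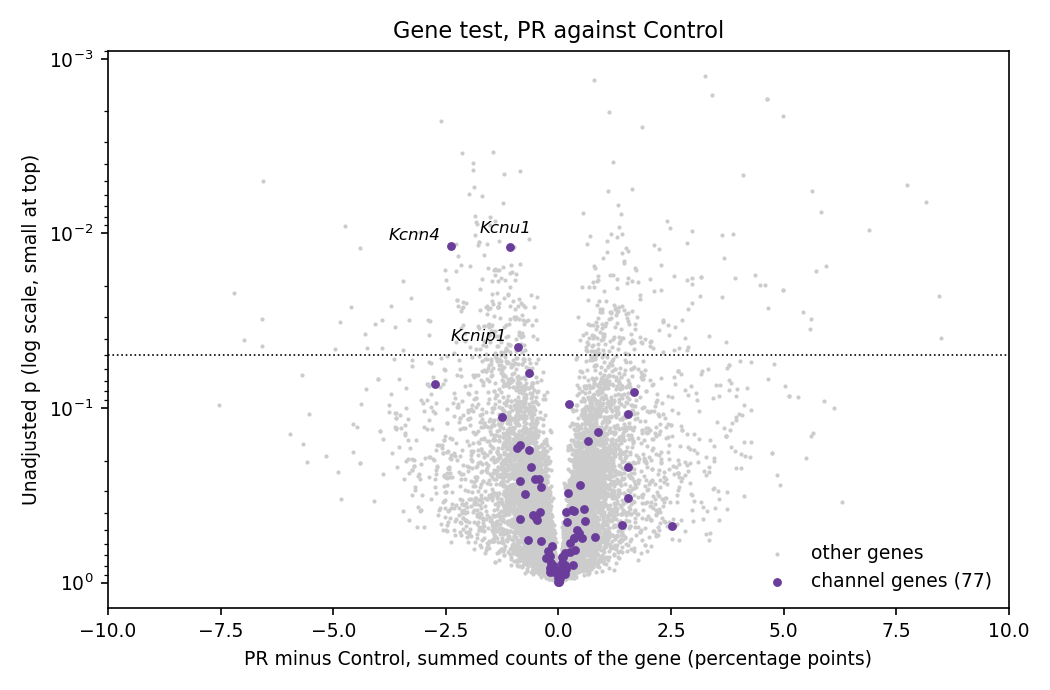
Difference in methylation of summed counts, PR minus Control, in percentage points (horizontal axis) against the unadjusted quasi-binomial p (vertical axis, log scale, small p at the top) for 77 channel genes (purple) and the other tested genes (grey); the dotted line is p = 0.05. Kcnn4, Kcnu1 and Kcnip1 lie above the line, and none of the 77 passed adjustment.

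Genes with many CpGs gave tight values. Kcnk2, with 29 CpGs, had 98.2% ± 0.400 in PR libraries (SD, n = 8) and 98.2% ± 0.328 in Control libraries (SD, n = 7). Kcnq5, with 34, had 96.3% ± 0.771 in PR and 96.1% ± 0.352 in Control libraries. Neither differed between diets by more than its SD. Kcnj6, the G-protein-gated channel GIRK2, with 29 CpGs, had 96.1% ± 0.598 in PR and 96.0% ± 0.870 in Control libraries. Kcnma1, with 36 CpGs, had 96.4% ± 0.628 in PR and 96.96% ± 0.425 in Control libraries, and 1 of 8 PR libraries exceeded its Control mean, with an unadjusted quasi-binomial p of 0.439.

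After Kcnh2 (65.7%) and Kcnab1 (85.3%), the genes of lowest level were near 90%, among them channels of muscle, glia and neurons. Cacna1s had 89.8% ± 2.50 in PR libraries (SD, n = 8) and 89.2% ± 1.95 in Control libraries (SD, n = 7), with a dispersion of 5.79 for its summed counts. Kcna10, a Kv1-type channel, had 89.3% ± 1.02 in PR and 90.4% ± 1.13 in Control libraries, and Kcnj10 had 89.8% ± 1.60 in PR and 89.9% ± 1.55 in Control libraries. In each the diets overlapped. Kcnj4, an inward rectifier (Kir2.3) of brain and heart, had 89.9% ± 2.30 in PR and 91.2% ± 3.51 in Control libraries, a difference of -1.26 points whose sign turned with summed counts (0.0653 points) and without the flanks (1.42 points). With the counts of a diet pooled over its libraries, as in the gene test, the Kcnj4 difference was 0.329 points.

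Kcnj9, the G-protein-gated channel GIRK3, had 92.2% ± 1.99 in PR and 89.6% ± 1.962 in Control libraries, with 8 of 8 PR libraries above the Control mean and overlapping ranges. Its p was 0.466 in the quasi-binomial test of summed counts and 0.0148 in limma on the mean of its 5 CpGs, both unadjusted. Scn4a had 91.6% ± 1.24 in PR and 91.4% ± 1.92 in Control libraries. Kcnk16, a two-pore channel of pancreatic islets, rested on 1 CpG and was not tested, with 88.3% ± 5.80 in PR and 93.7% ± 6.13 in Control libraries.

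Of 11 channel genes listed for a reported role in sperm or in male germ cells, 10 had a listed CpG and 9 could be tested. By the quasi-binomial test 1 of the 9, Kcnu1, had an unadjusted p under 0.05 (background 3.04%), and 0 passed adjustment. The T-type channel genes Cacna1h and Cacna1i had 98.6% ± 0.642 and 94.7% ± 0.498 in PR libraries (SD, n = 8) and 99.2% ± 0.752 and 94.2% ± 0.467 in Control libraries (SD, n = 7). Cacna1e had 97.8% ± 0.704 in PR and 98.005% ± 0.496 in Control libraries, and Scn8a, a neuronal sodium channel, had 95.7% ± 0.447 in PR and 95.7% ± 0.504 in Control libraries. In none of these genes were the diets apart. Kcnq1, the slow delayed rectifier pore, had 97.996% ± 0.805 in PR and 98.5% ± 0.642 in Control libraries. Kcnk5, an alkaline-activated leak channel, had 97.3% ± 2.04 in PR and 95.2% ± 2.80 in Control libraries over 3 CpGs. Kcnj11, the ATP-sensitive channel Kir6.2, had 2 listed CpGs, at 97.7% ± 1.93 in PR and 97.4% ± 0.990 in Control libraries, and Kcnk9 had none.

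CpGs near the ends of the channel genes gave a larger difference than whole genes. The outermost 1 kb inside and 2 kb outside either end held 80 CpGs in 28 genes, with a lowest, median and highest level of 93.2%, 93.7% and 94.5% in PR libraries, against 93.8%, 94.4% and 95.2% in Control libraries. The diets overlapped, and 1 of 8 PR libraries exceeded the Control mean. The means were 93.8% ± 0.440 in PR and 94.4% ± 0.460 in Control libraries, a difference of -0.616 points, where the channel CpGs as a whole differed by -0.0475 points.

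Without the 4 CpGs of Kcnmb2 the means at gene ends were 95.3% ± 0.275 in PR and 95.6% ± 0.508 in Control libraries, a difference of -0.314 points. The ends of all genes in the table had 93.5% ± 0.164 in PR and 93.4% ± 0.262 in Control libraries. Of the 80 CpGs 1 (1.25%) had an unadjusted quasi-binomial p under 0.05, below the background of 3.79%, and 0 passed adjustment. No p is given for the means, since the genes were chosen with earlier results known.

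Auxiliary subunits and partners of these channels, outside the rule, were taken from a list of 42 genes, of which 35 held 479 listed CpGs. They averaged 96.6% ± 0.180 in PR libraries (SD, n = 8) and 96.5% ± 0.358 in Control libraries (SD, n = 7). Of the 33 that could be tested, 0 passed adjustment in the quasi-binomial test and 0 had an unadjusted p under 0.05 (background 3.04%). The 37 CpGs in 7 genes of CatSper, the calcium channel of the sperm tail, averaged 97.5% ± 0.332 in PR and 97.3% ± 0.522 in Control libraries. Subunits of voltage-gated calcium channels, with 284 CpGs in 15 genes, had 96.9% ± 0.300 in PR and 96.8% ± 0.454 in Control libraries.

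The 24 channel genes with no listed CpG included Kcna1, Kcna3, Kcna4 and Kcna5, Kv1-type pores of nerve, lymphocytes and heart, and Cacna1f, the L-type calcium channel of the retina. They were not analysed here beyond this count and the start windows. Another 15 genes had 1 or 2 listed CpGs and were left out of the gene test.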

How the data were processed

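The 15 deposited files hold raw counts, and each row is a CpG with its methylated and its total count, as the authors left them. The submitters' processing notes name Bismark 0.7.12, Bowtie2 2.1.0 and the build mm10 without their roles. The sources used here do not give trimming, filters or any merging of strands. All files list the same 204492 positions, the lowest methylated count among them is 11, and no pair of libraries had identical counts. Reads carry no molecular identifiers, so intervals cover counting error only.

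Gene spans came from the RefSeq table of GRCm38.p6, the same assembly as mm10, which gives no exons, so exon and intron positions were not analysed here. A listed position is the C of a CG on the plus strand, checked at 717 of 717 positions in RefSeq start windows. Percent methylation is methylated over total counts, and a mean is the plain mean over CpGs. CpGs, windows of 1 kb and genes (span with 2 kb flanks, both with at least 3 listed CpGs) were tested in Python 3.11.15 (numpy 2.4.6, scipy 1.17.1) by logistic regression of the counts on diet with quasi-binomial errors. The F test had 13 residual degrees of freedom, the dispersion was floored at 1, and p-values were adjusted by Benjamini-Hochberg over all features, with a threshold of 0.05. A gene's test weights CpGs by depth, so its sign can differ from that of the plain means. limma 3.58.1 on percentages was the alternative, and the quasi-binomial test was checked on simulated data. Alternatives were another test, no floor on the dispersion, a coverage of at least 20 reads, other gene regions, other minimum numbers of CpGs, summed counts and each library left out.

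Libraries were grouped by the diet in the labels. Replicates are numbered in accession order and pair nothing. Genes named are the one with most CpGs in each family, the 10 lowest, the 5 with the smallest p in each direction and a list of sperm channels. CpGs named are the 5 with the smallest p in each direction, 1 per gene, and the 5 lowest. Windows named by rule are the 5 with the largest dispersion, and others were named after their values were seen. The members, lists and tests were chosen with earlier results of these data known. Some genes that match the symbols are not reported here.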

Additional observations from a re-analysis of the deposited data

Results flagged for a closer look

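Of 128 groups of libraries examined over families, genes, CpGs and windows, 6 held 1 library far from the rest of its diet, and chance alone flags about 1 in 20 groups. At 2 of the 6 the other libraries were all at 100%, where a single unmethylated read is enough.

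The two-pore family had 96.93% in PR replicate 6, against 97.47% to 97.8% in the other PR libraries. The accessory family had 95.94% in Control replicate 3, against 94.52% to 95.03% in the other Control libraries. Kcnn4 had 86.52% in PR replicate 8, against 90.51% to 93.92% in the other PR libraries. A window of Kcnn2 had 87.13% in Control replicate 6, against 94.95% to 100% in the other Control libraries. The CpG with the smallest p in Cacna1e had 98.88% in PR replicate 2, and that in Scn4a 98.46% in the same library, where every other PR library read 100%.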

How the results depend on the processing

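Of 304 recomputed values 12 moved by more than 1 SD between libraries, or by more than 1.5 times for a count. Smaller moves can still turn a sign: the difference over all channel CpGs was 0.0211 points with summed counts and 0.0357 at a coverage of at least 20 reads, and Kcnj4, Cacna1e and Scn8a also turned with summed counts. For inward rectifiers the difference was 0.854 points at that coverage, for calcium- and sodium-activated genes -0.0813, and for Scn4a 1.55 with summed counts. Pooled over the libraries of a diet, as in the gene test, the Scn4a difference was 1.68 points. No channel window or gene passed adjustment under any alternative run. Without the floor on the dispersion 3 channel CpGs passed an adjusted p of 0.05, of 194 among all CpGs (0.0949%), and 107 were at an unadjusted p under 0.05 (8.12%, against 7.83% of all). The 3, named after their values were seen, are Scn8a 100875193, Kcnip4 49152068 and Scn10a 119609968, each at 100% in all libraries of 1 diet with a dispersion of 0.178 to 0.218. At a coverage of at least 20 reads in every library 528 channel CpGs were left, 23 of them at an unadjusted p under 0.05 (4.36%, against 3.47% of all). With each library left out the count of channel genes at an unadjusted p under 0.05 was 2 to 5, the 5 without PR replicate 5, Kcne2 (p = 0.0320 by the same quasi-binomial test) among those added. At gene ends only, the difference was -0.616 points, PR minus Control, for all channel CpGs. By family it was -0.507 for inward rectifiers, -0.471 for two-pore, 0.203 for calcium- and sodium-activated and -2.14 for accessory genes. It was -0.688 for calcium channel pore and -1.06 for sodium channel pore genes. For voltage-gated potassium pore genes it was 0.169, which did not count as a move. These values rest on 6 to 19 CpGs a family, the 19 being the voltage-gated potassium pores. With summed counts the sodium channel pores differed by 0.200 points. The cause of these moves was not tested beyond the smaller number of CpGs or libraries. Leaving out each library kept the difference over all channel CpGs between -0.0733 and -0.00779 points. No paired analysis was possible because the labels give the diets no shared replicate numbers. Little methylated CpGs are hardly listed.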
